A study of Mus musculus with 6 samples.

Results

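The forkhead family was read in fully grown mouse oocytes that lacked Ring1, with and without Rnf2. Its members were the rows of the deposited table whose symbol is Fox, a class letter from a to s and a number, and 44 of 24028 genes matched. The 3 control libraries came from Ring1 -/-; Rnf2 f/f females, and the 3 double-knockout (dKO) libraries from Ring1 -/-; Rnf2 f/f; Zp3-cre females, in which Cre driven by the Zp3 promoter acts in growing oocytes. Both groups were therefore Ring1-null, and all were of mixed C57BL/6J, FVB and 129/Sv background and about 3 months old. Each library was made from 15 germinal vesicle (GV) oocytes of 1 female, after the granulosa cells had been stripped off with a fine glass capillary, so replicates were separate animals. Loss of Rnf2 and the Cre transgene cannot be told apart, nor can the library index, which was one sequence in all dKO libraries and another in all controls.

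Forkhead factors bind DNA through a winged-helix domain and are sorted by sequence into lettered classes. FOXO factors are held in the cytoplasm when AKT phosphorylates them, and Foxo3 keeps primordial follicles dormant, while Foxl2 maintains granulosa cell identity. Many other members switch on in restricted embryonic tissues, and a number of their promoters are classical Polycomb targets in other cells. Ring1 and Rnf2 encode the E3 ubiquitin ligases of Polycomb repressive complex 1.

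Levels are in FPKM, which divides fragments by transcript length and by library size, so levels can be set side by side between genes, but absolute depth is unknown. Relative depth, read from the spacing of low values, was 0.901 and 1.02 of control 1 in controls 2 and 3 and 0.664, 0.807 and 1.08 in dKO 1 to 3. Rnf2 stood at 53.7, 46.8 and 48.2 FPKM in the controls and 14.8, 8.44 and 5.31 FPKM in dKO libraries (limma adjusted p = 0.000696), and Ring1 was at most 0.240 FPKM in any library. Log2(FPKM + 1) values correlated at 0.982 to 0.983 among controls and 0.928 to 0.948 among dKO libraries. The oocyte markers, led by Gdf9 and Zp3, summed to 11184 to 11936 FPKM in controls and 8138 to 9849 FPKM in dKO libraries. By the limma test described below, 3 of these 14 genes fell and 1, Dppa3, rose, beside 7.04% and 14.0% of all tested genes. With no filter on low values 0 of the 14 were called.

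Where 3 or more libraries reached 1 FPKM, a gene was tested with limma on log2(FPKM + 1), with Benjamini-Hochberg adjustment over all 11334 and a threshold of 0.05. Of the 44 forkhead genes 15 passed this filter, and Foxi3 and Foxo6 passed only through their dKO values, so the members that passed are not all members. In dKO oocytes 4 rose: Foxi3, Foxj2, Foxo6 and Foxp2, that is 4 of 15 where 14.0% of all tested genes rose. Foxi3 and Foxo6 had control means above 0 and under 1 FPKM. Of all 1005 tested genes in that band 776 (77.2%) rose and 0 fell, so the rise of these members is not particular to them. None of the 15 fell by limma (0 also at an unadjusted p under 0.05), where 7.04% of all tested genes fell. Over all genes 1587 rose and 798 fell, and with median-ratio scaling of the libraries the split was 1520 against 1276, with quantile normalization 1191 against 1073. The median log2 change of the 15 was 0.02, beside -0.02 over all tested genes.

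**Figure D1:**
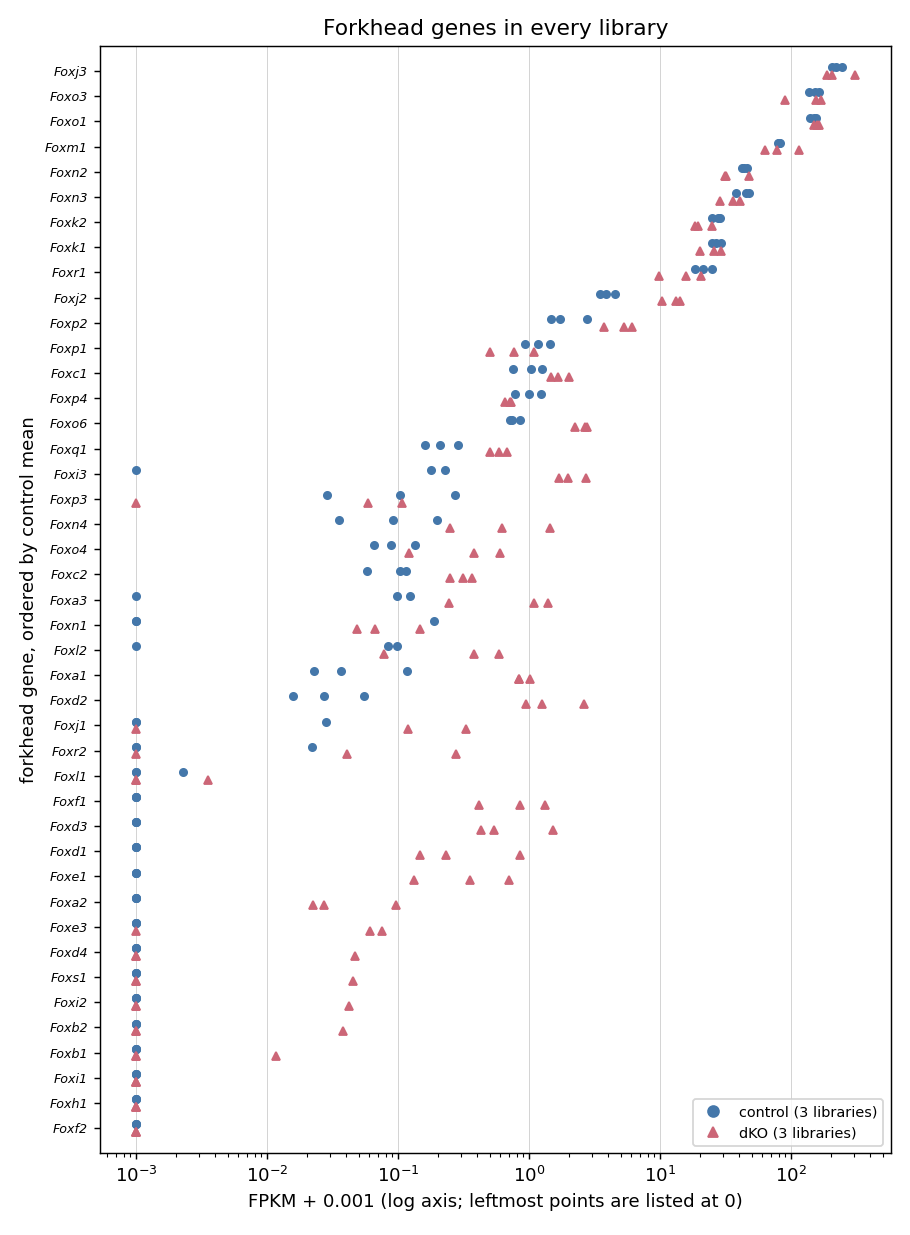
FPKM of 43 forkhead genes in each of the 6 libraries on a log axis (0.001 added), ordered by control mean, with controls as circles and dKO libraries as triangles. The 9 genes of highest control mean lie at 10 FPKM or more with overlapping groups in 8 of them, while many genes near 0 in controls have triangles to the right of their circles.

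Among the members 9 were abundant, with a control mean of at least 10 FPKM, and none of them passed the test (0 of 9 also at an unadjusted p under 0.05 by limma). Among all genes at that level 3.07% rose and 11.2% fell. The 9 summed to 713, 771 and 804 FPKM in controls and 632, 718 and 878 FPKM in dKO libraries, which overlap (exact permutation p = 0.9, two-sided). Their median log2 change was -0.17, and that of all genes at this level was -0.19. In controls Foxj3 alone made up 28.8% of the summed forkhead FPKM, Foxo3 19.4%, Foxo1 19.0% and Foxm1 10.4%. The order of the means was Foxj3, Foxo3, Foxo1, Foxm1, Foxn2, Foxn3, Foxk2, Foxk1 and Foxr1, where Foxo3 and Foxo1, Foxn2 and Foxn3, and Foxk2 and Foxk1 were not separated beyond the range of their control values.

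The FOXO class carries the oocyte factors. Foxo3, the brake on follicle activation, measured 136, 163 and 152 FPKM in the controls, against 88.8, 155 and 169 FPKM in dKO libraries. Only dKO 1 lay below the controls and dKO 3 lay above them, so the groups overlap (log2 change -0.17 ± 0.24 SE, 95% interval -0.72 to 0.37, limma adjusted p = 0.641). Foxo1, which acts in the same pathway, measured 138, 149 and 154 FPKM in the controls, against 162, 157 and 149 FPKM in dKO libraries. These values also overlap, and the log2 change of 0.09 had an interval from -0.23 to 0.40. Foxo4 was near 0 in both groups, at 0.0870, 0.132 and 0.0640 FPKM in controls and 0.592, 0.378 and 0.120 FPKM in dKO libraries. It was under the filter, and with no filter its log2 change was 0.30 with an interval from -0.01 to 0.62; without dKO 3, whose value fell among the controls, the limma adjusted p was 0.0298.

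Foxo6, a member best known from the brain, rose. It measured 0.733, 0.842 and 0.706 FPKM in the controls, against 2.64, 2.77 and 2.22 FPKM in dKO libraries (log2 change 1.01 ± 0.17 SE, limma adjusted p = 0.00364, 0.0154 with no filter). The mean went from 0.761 ± 0.0723 to 2.54 ± 0.284 FPKM (SD, n = 3), so all dKO libraries were above every control although the level remained far under that of Foxo1 and Foxo3.

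Foxj2 and Foxj3 encode related factors expressed in germ cells and other tissues. Foxj2 measured 3.44, 4.47 and 3.87 FPKM in the controls, against 10.3, 14.0 and 13.3 FPKM in dKO libraries. Every dKO library lay above every control (log2 change 1.45 ± 0.20 SE, limma adjusted p = 0.00119), from a mean of 3.93 ± 0.519 to 12.5 ± 1.98 FPKM (SD, n = 3). Exons of Foxj2 overlap Gm26826 on the other strand, whose reads cannot be told apart here. Foxj3, the most abundant member, measured 204, 220 and 244 FPKM in the controls, against 186, 203 and 304 FPKM in dKO libraries. Only dKO 3 exceeded the controls, and the log2 change was 0.02 (95% interval -0.45 to 0.49).

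Foxi3, a regulator of ear and tooth placodes, and Foxp2, a neural regulator, also rose. Foxi3 was at 0.225, 0.178 and 0 FPKM in controls and 2.72, 1.67 and 1.99 FPKM in dKO libraries (log2 change 1.45 ± 0.19 SE, limma adjusted p = 0.000826, 0.00607 with no filter). All 3 dKO libraries lay far above the highest control. Foxp2 was at 1.72, 1.45 and 2.75 FPKM in controls and 6.12, 3.73 and 5.30 FPKM in dKO libraries, with no overlap (log2 change 1.03 ± 0.25 SE, limma adjusted p = 0.0189). Its call was lost with no filter on low values (adjusted p = 0.0574), with quantile normalization (0.0832), and without control 1 (0.0812), control 2 (0.0919) or dKO 1 (0.0531).

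The 250 bases before the RefSeq start of 3 members that rose (Foxj2 and Foxi3 with the filter at 1 FPKM, Foxd2 with no filter or one at 0.5 FPKM) and of abundant Foxo3 are shown because PRC1 is known to favour CpG-rich promoters; they are from build GRCm38.p6, on the gene's strand, with CpG in capitals. Foxj2 lies at chr6:122819934-122820183 on the plus strand, Foxi3 at chr6:70956356-70956605 on the plus strand, Foxd2 at chr4:114908899-114909148 on the minus strand and Foxo3 at chr10:42276696-42276945 on the minus strand.
Foxj2: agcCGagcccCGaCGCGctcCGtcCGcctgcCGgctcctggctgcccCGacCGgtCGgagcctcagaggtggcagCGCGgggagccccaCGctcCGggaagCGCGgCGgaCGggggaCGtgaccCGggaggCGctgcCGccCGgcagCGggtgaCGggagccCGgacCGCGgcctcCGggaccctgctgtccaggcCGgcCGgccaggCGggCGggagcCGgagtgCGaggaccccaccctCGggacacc
Foxi3: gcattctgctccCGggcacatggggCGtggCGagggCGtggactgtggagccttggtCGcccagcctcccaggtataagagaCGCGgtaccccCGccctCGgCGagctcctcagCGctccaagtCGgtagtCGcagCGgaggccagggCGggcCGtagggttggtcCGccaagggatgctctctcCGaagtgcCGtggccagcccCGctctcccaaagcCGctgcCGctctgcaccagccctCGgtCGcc
Foxd2: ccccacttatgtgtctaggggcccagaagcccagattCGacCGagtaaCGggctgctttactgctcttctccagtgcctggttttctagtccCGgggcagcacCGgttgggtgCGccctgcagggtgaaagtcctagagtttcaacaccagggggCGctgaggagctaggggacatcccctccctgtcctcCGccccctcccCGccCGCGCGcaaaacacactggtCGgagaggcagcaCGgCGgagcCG
Foxo3: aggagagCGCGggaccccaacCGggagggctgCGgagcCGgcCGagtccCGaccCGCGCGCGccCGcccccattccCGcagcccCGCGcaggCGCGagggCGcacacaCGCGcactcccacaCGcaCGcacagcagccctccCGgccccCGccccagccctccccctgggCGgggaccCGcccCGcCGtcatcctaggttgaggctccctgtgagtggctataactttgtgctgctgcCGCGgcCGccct
These windows hold 36, 24, 16 and 31 CpG, at percentiles 97.6, 88.7, 75.5 and 95.1 of 32851 RefSeq windows, whose median is 6. Foxo3, which did not pass the test, holds more CpG than Foxi3 and Foxd2 and fewer than Foxj2. Only 28 of 44 members had a window, so a comparison of CpG over the family is void. The forkhead core TGTTTAC, searched on both strands as TGTTTAC and GTAAACA, is in 3.17% of all windows and in 1 member's, Foxa1.

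The remaining abundant members belong to classes with broad roles. Foxm1, an activator of mitotic genes, measured 80.2, 78.6 and 81.8 FPKM in the controls, against 62.6, 78.3 and 115 FPKM in dKO libraries. The dKO 3 value lay above and the others below the narrow control range (log2 change 0.04, 95% interval -0.44 to 0.53). Foxn2 measured 41.9, 43.7 and 45.7 FPKM in the controls, against 47.4, 31.2 and 31.7 FPKM in dKO libraries (log2 change -0.27, interval -0.70 to 0.15). Foxn3, a repressor tied to the DNA damage checkpoint, measured 44.9, 38.1 and 47.8 FPKM in the controls, against 35.9, 28.6 and 40.6 FPKM in dKO libraries (log2 change -0.32, interval -0.72 to 0.08). Both overlap, Foxn2 through dKO 1 alone; without dKO 1 it had a limma adjusted p of 0.0469.

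Foxk1 and Foxk2 bind DNA as nutrient-responsive repressors. Foxk1 measured 24.9, 26.6 and 28.9 FPKM in the controls, against 20.0, 25.5 and 28.9 FPKM in dKO libraries (log2 change -0.12, interval -0.52 to 0.28). Foxk2 measured 24.99, 27.4 and 28.8 FPKM in the controls, against 19.2, 24.96 and 18.5 FPKM in dKO libraries. Its groups just fail to overlap, lower in dKO oocytes, as for 29.4% of all tested genes at this level (log2 change -0.37, interval -0.75 to 0.02, limma adjusted p = 0.158, and 0.0447 without dKO 2). Foxr1, a little-studied member found in germ cells, measured 18.5, 24.9 and 21.3 FPKM in the controls, against 9.82, 15.6 and 20.6 FPKM in dKO libraries. It overlapped through dKO 3 (log2 change -0.51, interval -1.10 to 0.07, limma adjusted p = 0.186, and 0.0494 without dKO 3). In 7 of the 9 abundant members dKO 1 lay below every control (58.2% of all genes at this level), and in 4 dKO 3 lay above every control (23.3%).

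Foxp1 and Foxc1 lay near 1 FPKM. Foxp1, a factor of B cell and heart development, measured 0.927, 1.45 and 1.16 FPKM in the controls, against 0.502, 0.757 and 1.08 FPKM in dKO libraries. It overlapped and did not pass the test (log2 change -0.30, interval -0.73 to 0.14), but with quantile normalization it was called lower (limma adjusted p = 0.0382). Foxc1, a mesenchyme and eye factor, measured 0.748, 1.03 and 1.25 FPKM in the controls, against 1.66, 1.46 and 1.9997 FPKM in dKO libraries, without overlap (log2 change 0.43, interval 0.01 to 0.85, limma adjusted p = 0.132).

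**Figure D2:**
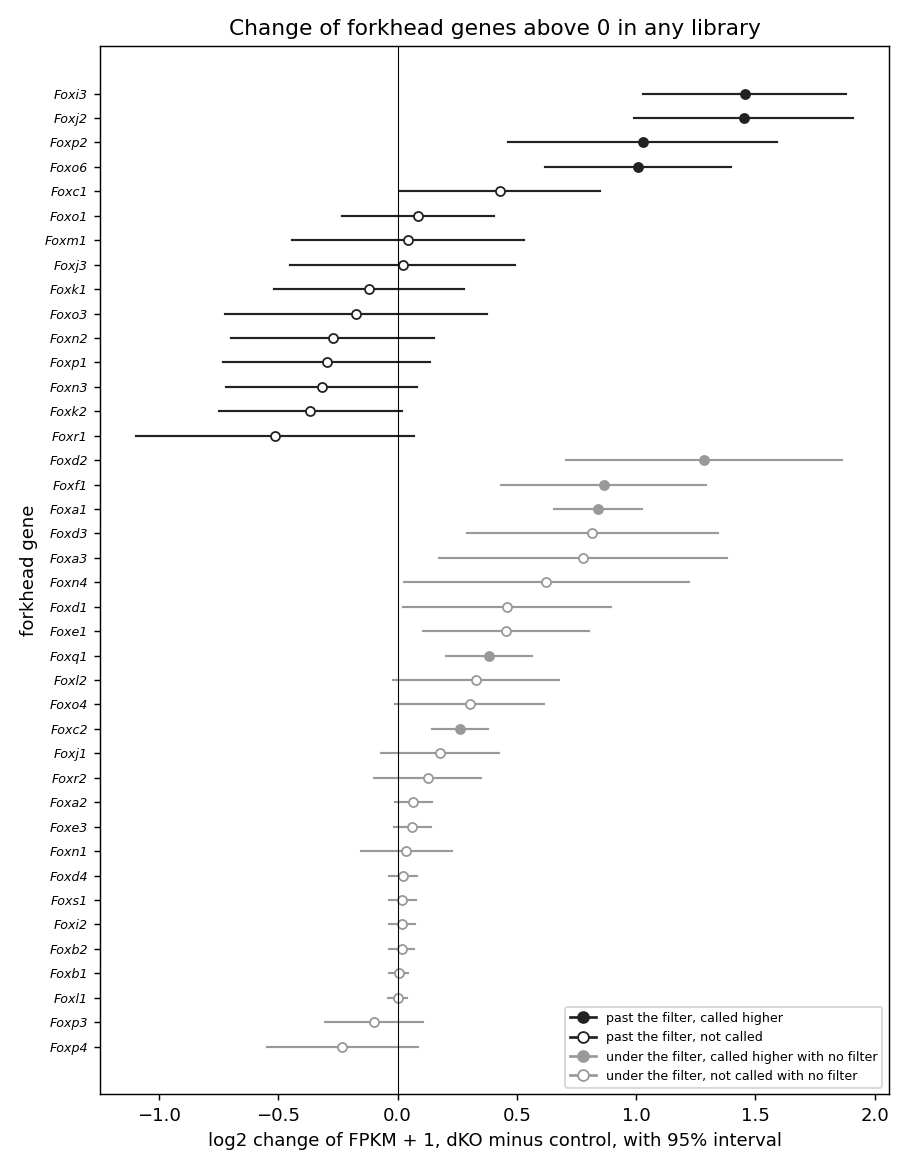
Log2 change of FPKM + 1 (dKO minus control) with its 95% interval for 40 forkhead genes above 0 in any library, black where the gene passed the filter and grey where it was fitted with no filter. Filled points were called higher; Foxi3 and Foxj2, both at 1.45, have the largest changes and no point is called lower.

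Members with little or no RNA in controls were read together. The 31 members with a control mean under 1 FPKM summed to 2.99, 2.88 and 2.66 FPKM in controls and to 19.0, 13.5 and 11.6 FPKM in dKO libraries. Every dKO library was above every control. The exact permutation p was 0.1, two-sided, the smallest that 3 against 3 can give. The 31 were chosen by their low control values, which leave little room to fall, so this p says nothing particular to forkhead genes. Of all 9829 genes with a control mean under 1 FPKM, 29.1% had every dKO library above every control. The 3 controls held 21, 19 and 19 members at 0.1 FPKM or more, and the dKO libraries 32, 30 and 29. Of all genes 14172 ± 230 reached that level in controls and 15668 ± 331 did in dKO libraries (SD, n = 3), so more genes were detected over the whole table too. Since 15 oocytes were pooled per library, RNA from a few cells and RNA from all of them cannot be told apart.

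**Figure D3:**
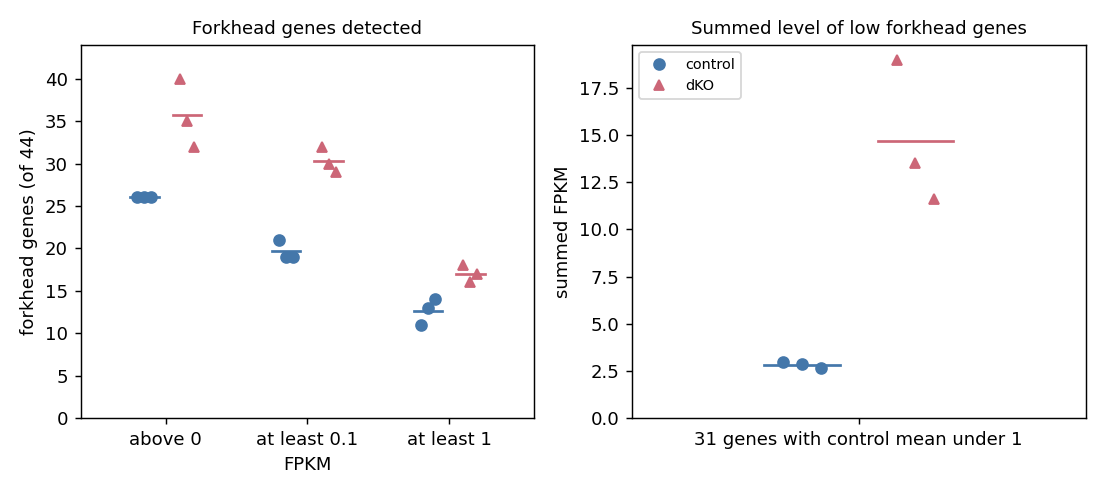
Forkhead genes detected above 0, at 0.1 FPKM and at 1 FPKM (left) and the summed FPKM of the 31 low members (right), 1 point per library with the group mean as a bar. The dKO libraries lie above every control in each panel, with 19.0 FPKM in dKO 1 against at most 2.99 FPKM in controls.

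Fitted with no filter, 9 of the 41 members above 0 in any library were called higher by limma, as 9.88% of 20310 genes were. None was called lower (1 at an unadjusted p under 0.05, Foxk2), as 2.68% of all genes were. Among those called higher were Foxd2, Foxi3, Foxj2 and Foxo6, and Foxa1, Foxc2, Foxf1 and Foxq1, which are named after their values were seen. Among the 17 members with a control mean above 0 and under 1 FPKM 7 were called, and 15.9% of all genes in that band were. With replicate number as a block 3 members remained, Foxa1, Foxi3 and Foxj2, where 4.55% of all genes were called higher. Without any 1 control the same 3 were called (3.04% to 3.44% of all genes), and with quantile normalization 5 were (6.23%). Without dKO 1, 2 or 3 the count was 9, 8 or 13, where 8.29%, 9.03% and 12.3% of all genes were called. With the filter at 0.5 FPKM 6 of 19 members were called: Foxa1 (adjusted p = 0.00257), Foxd2 (0.00432) and the 4 of the filter at 1 FPKM. The groups did not overlap, dKO higher, for 17 of the 41 members (41.5%), beside 22.3% of all genes above 0 in any library.

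Foxd2, a factor of kidney and neural crest derivatives, measured 0.0533, 0.0147 and 0.0261 FPKM in the controls, against 2.62, 0.943 and 1.25 FPKM in dKO libraries. All dKO libraries were well above the controls, with dKO 1 highest (log2 change 1.28 ± 0.24 SE, limma adjusted p = 0.0232 with no filter, 0.0519 with the block, and 0.102 to 0.106 without any 1 control). Foxa1, the pioneer factor of endoderm, measured 0.0216, 0.0358 and 0.116 FPKM in the controls, against 0.832, 1.02 and 0.836 FPKM in dKO libraries. Its dKO values were close together (log2 change 0.84 ± 0.07 SE, limma adjusted p = 0.00268 with no filter). Foxf1 of lung mesenchyme was listed at 0 in every control and stood at 1.31, 0.414 and 0.842 FPKM in dKO libraries (limma adjusted p = 0.0311 with no filter, 0.0625 with the block, 0.121 to 0.125 without 1 control, 0.0719 without dKO 3). Foxq1 and Foxc2 went from 0.216 and 0.0904 FPKM to 0.586 and 0.307 FPKM in the means (limma adjusted p = 0.0260 and 0.0229 with no filter, 0.0615 and 0.0879 with the block), with every dKO library above every control; Foxc2 was also lost without dKO 1 (0.0553). With quantile normalization their log2 changes went from 0.38 to 0.08 for Foxq1 and from 0.26 to 0.06 for Foxc2, neither called (adjusted p = 0.459 and 0.461), and Foxq1 was not called with a pseudocount of 0.1 (0.0674) or the filter at 0.5 FPKM (0.0697).

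Of the members 14 were listed at 0 in every control. Foxf2, Foxh1, the nodal pathway partner of SMADs, and Foxi1 were at 0 in all 6 libraries. Foxa2, Foxd1, Foxd3, Foxe1 and Foxf1 were above 0 in all 3 dKO libraries, that is 5 of the 11 members of this kind above 0 in any dKO library, where 21.0% of all such genes were. Foxd3, an epiblast and neural crest factor, stood at 1.503, 0.534 and 0.424 FPKM in dKO libraries and did not pass the test with no filter (limma adjusted p = 0.0627), but was called higher with a pseudocount of 0.1 or 0.5, with array weights and without dKO 1. The other 6, Foxb1, Foxb2, Foxd4, Foxe3, Foxi2 and Foxs1, reached at most 0.0734 FPKM. Of the 14 members with a control mean under 1 FPKM and no overlap 8 were highest in dKO 1, 4 in dKO 2 and 2 in dKO 3, and of all such genes 41.5%, 30.5% and 28.0% were. The part of the lower depth of dKO 1 in this order was not tested.

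By class, the summed FPKM in controls and dKO libraries was 0.116 to 0.144 and 1.17 to 2.43 for Foxa, 0.0147 to 0.0533 and 1.71 to 5.01 for Foxd, and 0 and 0.130 to 0.767 for Foxe. Foxb, Foxh, Foxl and Foxs summed to at most 0.586 FPKM in any library. Foxl2, the granulosa factor, measured 0.0972, 0 and 0.0817 FPKM in the controls, against 0.378, 0.586 and 0.0769 FPKM in dKO libraries; the groups overlapped through dKO 3 (log2 change 0.33, interval -0.02 to 0.68 with no filter; limma adjusted p = 0.0279 without dKO 3).

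Some markers of other ovarian cells were also higher in dKO libraries, while others were not. Of 18 granulosa and cumulus genes 9 were tested and 6 rose (Fshr, Has2, Inhba, Nr5a2, Ptgs2 and Wt1), where 14.0% of all tested genes rose. All of the 6 but Nr5a2 were under 1 FPKM in every control and entered through their dKO values. With no filter 5 of 17 were called higher, beside 9.88% of all genes. Cyp19a1, the aromatase gene, went the other way, from 9.94 to 5.78 FPKM in the means without overlap (limma adjusted p = 0.05004). With all 18 genes, the list summed to 27.2 to 34.1 FPKM in controls and 67.7 to 69.8 FPKM in dKO libraries. Ptx3 was at 0 in all libraries, Amhr2 was at most 0.0817 FPKM and Amh had means of 0.692 FPKM in controls and 0.346 FPKM in dKO libraries. The theca and stroma list summed to 25.04 to 28.1 FPKM in controls and 21.4 to 33.8 FPKM in dKO libraries, most of it Myh11 (22.1 to 25.5 and 9.53 to 24.7 FPKM). Its other 12 genes summed to 2.19 to 4.32 and 7.76 to 13.03 FPKM, without overlap. Of its 3 tested genes 1 rose (background 14.0%), Nr2f2, which was under 1 FPKM in every control and entered through its dKO values. With no filter 4 of 13 were called higher, beside 9.88% of all genes, among them Pdgfra, Col1a1 and Dcn. The endothelial list summed to 24.8 to 33.9 and 20.5 to 29.4 FPKM, with Emcn at 0. Its most abundant gene, Pecam1, 1 of 2 tested, was called lower (background 7.04%, limma adjusted p = 0.0280, 0.0505 with no filter). The other 7 genes of this list summed to 4.28 to 5.61 and 7.51 to 11.6 FPKM. The blood list, with Hbb-b1 at 0, summed to 0.611 to 2.15 and 3.33 to 4.85 FPKM. The part of these cells in the values of the low forkhead members was not tested.

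Genes that act around the factors were read from lists. Of 42 genes of the PI3K-AKT-FOXO pathway 40 were tested, 2 rose and 4 fell (background 14.0% and 7.04%), with a median log2 change of -0.02. Without any 1 control 1 rose and 0 to 2 fell, without dKO 2 it was 3 and 5, and without dKO 3 it was 5 and 6. The insulin receptor substrate Irs1 rose from 0.0243 ± 0.00945 to 4.69 ± 1.02 FPKM (SD, n = 3, log2 change 2.46, limma adjusted p = 5.84e-05, 0.00221 with no filter). It was under 1 FPKM in every control and passed the filter only through its dKO values. Insr, its receptor, rose from 1.16 to 2.91 FPKM (limma adjusted p = 0.0111, but 0.0518 to 0.0579 without any 1 control and 0.0776 with quantile normalization). Among the falls, Kit, the receptor upstream of oocyte PI3K, went from 99.8, 99.3 and 102 FPKM to 55.2, 71.4 and 52.8 FPKM without overlap (log2 change -0.75 ± 0.16 SE, limma adjusted p = 0.0106, but 0.0515 to 0.0570 without any 1 control). The growth kinase gene Mtor went from 15.5 to 7.22 FPKM in the means (limma adjusted p = 0.0102, and 0.0595 without control 2). Tsc1, an inhibitor of that kinase, went from 17.8 to 10.2 FPKM (limma adjusted p = 0.0224, and 0.0991 and 0.118 without control 1 or 2). The other gene that fell was Rictor (31.3 to 20.1 FPKM; 0.0176, and 0.0820 to 0.0898 without any 1 control).

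Of 36 FOXO target genes 24 were tested, 12 rose and 1 fell (background 14.0% and 7.04%), with a median log2 change of 0.54. Of the 12, Cat, Gabarapl1, Pmaip1 and Sesn1 were under 1 FPKM in every control and passed the filter only through their dKO values. With no filter 9 of 34 were called higher (9.88% of all genes) and the median was 0.27; over leave-one-out fits with the filter 7 to 12 rose. Gabarapl1, an autophagy gene, measured 0.410, 0.250 and 0.502 FPKM in the controls, against 20.4, 20.3 and 17.5 FPKM in dKO libraries (log2 change 3.88, limma adjusted p = 1.76e-05). Pmaip1, a pro-apoptotic gene, went from 0.0762 to 8.33 FPKM and Klf4 from 2.39 to 22.2 FPKM in the means, with no overlap. Bmp15, an oocyte growth factor also on the oocyte list, went from 904 ± 8.67 to 593 ± 70.8 FPKM (SD, n = 3; limma adjusted p = 0.0418), and was not called with the block (0.0740), with no filter (0.104), without any 1 control (0.146 to 0.155) or dKO 1 (0.0524), or with quantile normalization (log2 change -0.28 in place of -0.62, adjusted p = 0.257).

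Of 26 FOXM1 targets none was called by limma (0 higher and 3 lower at an unadjusted p under 0.05), with a median log2 change of -0.12; with median-ratio scaling 2 were lower and without dKO 2 it was 3. Bub1b, a spindle checkpoint kinase gene, and the cyclin gene Ccnb1, the most abundant of the list, overlapped between groups. Of 10 tested FOXJ1 ciliary genes 0 rose (0 also at an unadjusted p under 0.05) and 1 fell (background 7.04%), with a median log2 change of -0.52. At an unadjusted p under 0.05 by limma 4 were lower, beside 1771 of all 11334 genes. The gene that fell was the intraflagellar transport gene Ift172 (limma adjusted p = 0.0217, 0.0583 with no filter, 0.0561 without control 1, 0.0994 without control 2 and 0.0600 without dKO 1). With no filter the median was 0.03 over 25 genes, with 1 called higher and 0 lower (9.88% and 2.68% of all genes). Of 11 tested FOXH1 and SMAD partners 2 rose (background 14.0%), both under 1 FPKM in every control, among them the mesendoderm factor Eomes (0.0352 to 6.26 FPKM). Of 8 tested FOXA and FOXL2 targets 2 rose (background 14.0%), the chemokine receptor gene Cxcr4 (1.53 to 6.63 FPKM) and the liver factor Onecut1 (2.22 to 5.65 FPKM), and neither was called with no filter. Onecut1 also lost its call without any 1 control (limma adjusted p 0.0849 to 0.133) and Cxcr4 without control 2 (0.0509).

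**Figure D4:**
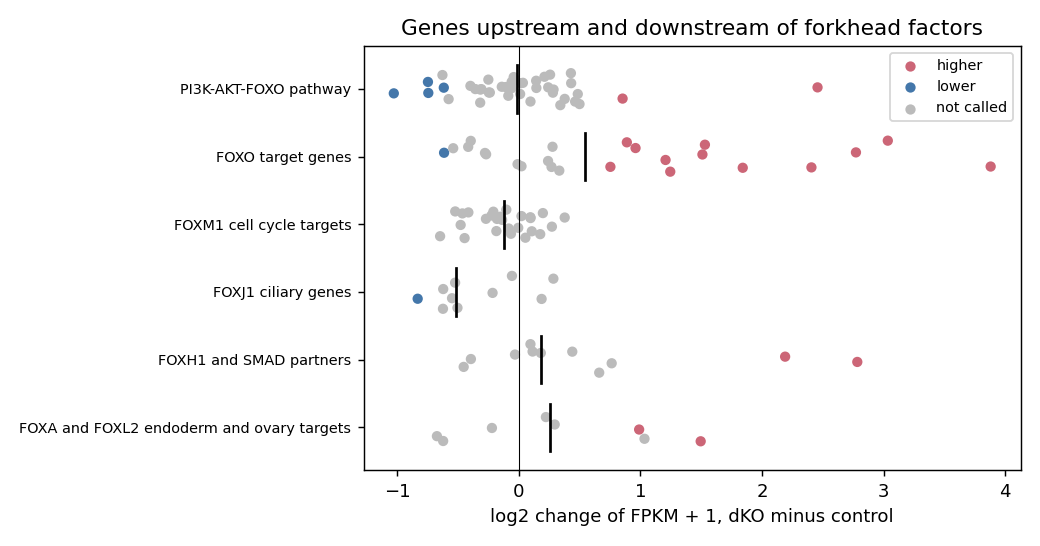
Log2 change of FPKM + 1 (dKO minus control) of each tested gene of 6 lists of genes upstream or downstream of forkhead factors, 1 point per gene, coloured where the gene was called, with the list median as a black line. The FOXO target genes have a median of 0.54, or 0.27 with no filter, and no FOXM1 target is coloured.

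The T-box and Sox families of developmental factors were counted the same way. With no filter 6 of 14 T-box genes and 6 of 18 Sox genes were called higher, beside 9 of 41 forkhead genes and 9.88% of all genes, and the T-box gene Tbx4 was called lower; differences between families were not tested. Eomes, the T-box gene with the largest rise, and Sox30 and Sox2, the Sox genes with the largest rises, stood at 0.0352, 0.119 and 0.256 FPKM in the control means and 6.26, 5.19 and 6.00 FPKM in the dKO means.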

How the data were processed

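Total RNA of 15 pooled GV oocytes per female was amplified with the Ovation v2 kit and sequenced on a HiSeq, per the labels' protocols. The authors deposited 1 table of FPKM values; TopHat2 2.0.11, Cufflinks 2.0.2 and build mm9 are named per the submitters' processing notes, and for their roles, the gene annotation, strand and scaling the sources used here give nothing. Of 24525 rows 497 repeated a gene with the same values and were removed. Without stated strand, values of members whose exons overlap another gene (13 of 44, among them Foxj2, Foxm1, Foxo1 and Foxp1) are uncertain to that extent.

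Where 3 or more libraries reached 1 FPKM, genes were fitted with limma 3.58.1 in R 4.3.3 (lmFit and eBayes with trend on log2(FPKM + 1), two-sided, unpaired) and adjusted over all 11334; changes on this scale understate those of low genes. Members under the filter were fitted with all 20310 genes above 0. The code was tested on simulated data. A replicate number marks a lane shared by 1 control and 1 dKO library, per the labels; deviations of such pairs from their group means had correlations of 0.147, 0.107 and 0.0637 (numbers 1 to 3). The block by replicate number was an alternative, beside other pseudocounts, filters, scalings, variance models, thresholds and each library left out. Promoters are from RefSeq, build GRCm38.p6.

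The members and lists were chosen with earlier results of these data known. The rule for named genes takes members past the threshold, those with a mean of at least 1 FPKM in either group, and Foxo1, Foxo3, Foxo4 and Foxl2. From each list it takes up to 3 rising and 3 falling genes, or the 2 of highest mean, and for marker lists the summed level. It also takes Ring1, Rnf2 and neighbours of named members past the threshold. Some genes that were counted are not reported here by name or plotted.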

Additional observations from a re-analysis of the deposited data

How the results depend on the processing

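The number of members called higher was 4 as reported, 9 with no filter, 6 with a filter at 0.5 FPKM and 1 with a filter at 5 FPKM, which leaves out Foxi3, Foxo6 and Foxp2, and ranged from 3 to 4 when single libraries were left out. The number called lower was 0 as reported, 1 with quantile normalization, and 0 to 1 when single libraries were left out (Foxn2 without dKO 1, Foxk2 without dKO 2, Foxr1 without dKO 3). Over all genes, 1587 were higher as reported, 655 with the filter at 5 FPKM, 995 at an adjusted p under 0.01 and 1087 to 1869 when single libraries were left out. The number lower was 798 as reported, 1276 with median-ratio scaling, 181 at an adjusted p under 0.01, 1390 at an adjusted p under 0.1 and 231 to 1465 when single libraries were left out; the cause was not tested.

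Log2 changes that turned sign were near 0. Foxj3 was at -0.060 with median-ratio scaling and -0.020 with array weights, and ranged from -0.19 to 0.16 when single libraries were left out. Foxm1 was at -0.038 with median-ratio scaling and ranged from -0.19 to 0.24. Foxo3 was at 0.032 with quantile normalization and ranged from -0.35 to 0.11, and Foxk1 ranged from -0.23 to 0.020. With the replicate block, the filtered fit called the same 4 members higher, and over all genes 1681 were higher and 887 lower. Beyond the calls given with the members and Bmp15, the block changed no call of a named member. Since depth is unknown, values near 0 carry no counting interval, and low values are least precise in dKO 1 and 2.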

Other observations

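Genes next to a forkhead gene were read as a further description. Of 81 nearest neighbours of the members on the reference chromosomes 30 were tested, 4 rose and 2 fell by limma (background 14.0% and 7.04%). Rragb and Rnf157, counted among the 4, passed the filter only through their dKO values. With no filter 5 of 71 neighbours were called higher and 1 lower, beside 9.88% and 2.68% of all genes. The named neighbours of named members were Ppp1r21, beside Foxn2, and Ccdc84, beside Foxr1. Ccdc84 measured 8.81, 10.7 and 9.17 FPKM in the controls, against 2.48, 4.19 and 2.11 FPKM in dKO libraries, with no overlap (log2 change -1.46 ± 0.24 SE, limma adjusted p = 0.00299), while Foxr1 itself did not pass the test. Ppp1r21 measured 5.77, 5.14 and 5.96 FPKM in the controls, against 9.99, 9.69 and 8.04 FPKM in dKO libraries (limma adjusted p = 0.0441, but 0.0663 with the block, 0.120 to 0.179 without any 1 control, 0.0776 and 0.0638 without dKO 1 or 2, and 0.0524 and 0.0729 with median-ratio scaling and quantile normalization), while Foxn2 did not pass the test.

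Named after their values were seen, Rragb, beside Foxr2, went from 0.0924 ± 0.0559 to 2.09 ± 0.712 FPKM (SD, n = 3, limma adjusted p = 0.000951, 0.00702 with no filter). Rnf157, beside the ciliary regulator Foxj1, went from 0.156 ± 0.0168 to 1.80 ± 0.161 FPKM (SD, n = 3, limma adjusted p = 0.000560, 0.00238 with no filter). Both were under 1 FPKM in every control. Lcp2, beside Foxi1, was called higher (adjusted p = 0.0211, but 0.0942 and 0.0868 without control 1 or 3, 0.0617 and 0.0535 without dKO 1 or 2, 0.0690 with no filter and 0.0901 with quantile normalization). Acacb, beside Foxn4, was called lower (adjusted p = 0.0480, but 0.0948 to 0.159 without any 1 control, 0.0632 without dKO 1, 0.106 with no filter, 0.0552 with the filter at 5 FPKM, and 0.0543 and 0.0508 with pseudocounts of 0.1 and 0.5).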
